A study of Homo sapiens with 2 samples.

Results

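Semaphorins, plexins, neuropilins, ephrins, Eph receptors, Slits and Robo receptors are the guidance molecules with which growing axons and migrating cells read their surroundings. Their genes were picked out of the RNA contacts of DDX18, a nucleolar DEAD-box RNA helicase, by symbol: protein-coding genes called SEMA followed by a digit, PLXN, NRP1, NRP2, EPHA, EPHB, EFNA, EFNB, ROBO, and SLIT1 to SLIT3. The rule found 61 genes, of which 36 had at least 1 peak. These 36 genes held 151 of the 17163 entries of the peak list, each at a position of its own, out of 16095 distinct positions in all.

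The contacts were measured by iCLIP, in which ultraviolet light fixes a protein to the RNA it touches and the bound fragments are sequenced. The only group was FLAG-DDX18 iCLIP: H9 cells, an established line of human embryonic stem cells, made to express DDX18 with a triple FLAG tag, grown under normal culture on irradiated mouse embryonic fibroblasts, and pulled down with an anti-FLAG antibody. It had 2 samples, replicates 1 and 2, which share 1 deposited list, and the labels do not say whether they came from separate cultures. The tagged protein may not stand at the level of the native one, which was not measured here, and no untagged or input sample was used here.

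Each peak has a height, the authors' own signal in whole numbers, and the list gives 1 height for both samples together. No spread between samples, no reads per sample and no test between groups can therefore be given, and genes and peaks are not replicates. Intervals on shares are exact 95% binomial intervals (Clopper-Pearson) and cover counting error only. A height follows both how much DDX18 was bound to an RNA and how much of that RNA the cells held, and these were not told apart. A gene without a listed peak is not shown to be unbound. Of the stem cell markers LIN28A, L1TD1, DNMT3B, NANOG, POU5F1 and SOX2, 4 of 6 had a peak, with 0 positions for POU5F1 and SOX2. Markers of neuroectoderm had a peak in 3 of 5 genes (0 in PAX6 and SOX1), and those of fibroblasts, the type of the feeder cells, in 4 of 5 (0 in VIM). Among all protein-coding genes 31.0% had a peak. The part of other cells in the results below was not tested.

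As background, semaphorins bind plexins, and the secreted class 3 semaphorins mostly do so together with a neuropilin. Ephrins sit on the cell surface, by a lipid anchor in the A class and by a transmembrane stretch in the B class, and bind the Eph receptor tyrosine kinases. Slits are large secreted proteins bound by Robo receptors, and in these systems contact often turns the growing tip of the cell away. Plexins, neuropilins, Eph and Robo proteins are counted here as receptors, and semaphorins, ephrins and Slits as ligands, although transmembrane semaphorins and ephrin-B proteins can also signal back into the cell that carries them.

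Peaks were found in receptor and in ligand genes. Of the receptors, 19 of 29 genes had a peak (65.5%, interval 45.7 to 82.1). Of the ligands, 17 of 32 had one (53.1%, 34.7 to 70.9). Among all protein-coding genes the share was 31.0% (6218 of 20056), a background that also holds genes not expressed in these cells and that was not matched for transcript length. Receptors minus ligands came to 12.4 percentage points, with an interval of -11.8 to 34.5 (Newcombe) that includes 0. The sign turned when the ephrins were left out of the ligands (-4.05 points) and when only peaks in exons were counted (-2.05 points), so receptors and ligands were not set apart by the share of genes with a peak.

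The families are small, so their intervals are wide and most overlap, and no test between families was made. Semaphorins had a peak in 15 of 20 genes (75%, 50.9 to 91.3), plexins in 7 of 9 (77.8%, 40.0 to 97.2) and Eph receptors in 9 of 14 (64.3%, 35.1 to 87.2). Ephrins had one in 1 of 9 (11.1%, 0.281 to 48.2), where the 9 include EFNA4-EFNA3, a readthrough transcript listed as a gene of its own. EFNA5 was the ephrin with peaks, and EFNA1 to EFNA4 and EFNB1 to EFNB3 had 0. Thus 9 Eph receptor genes were listed beside 1 gene of their ligands, whereas semaphorins and plexins were both listed at a share of at least 75%. The 31.0% of all protein-coding genes lies within the ephrin interval. Of the listed genes, 3 Eph receptors, 2 plexins and 2 semaphorins had intronic peaks only. A peak in an exon was found in 6 of 14 Eph receptors, 5 of 9 plexins, 13 of 20 semaphorins and 1 of 9 ephrins. The share over all protein-coding genes was 21.9%. Neuropilins had a peak in 1 of 2 genes, Robo genes in 2 of 4 and Slit genes in 1 of 3. The receptors with no peak were PLXNA3, PLXNB3, NRP1, EPHA4, EPHA5, EPHA10, EPHB3, EPHB6, ROBO3 and ROBO4. The ligands with none, besides the ephrins, were SEMA3D, SEMA3G, SEMA4G, SEMA5A, SEMA6C, SLIT1 and SLIT3.

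**Figure D1:**
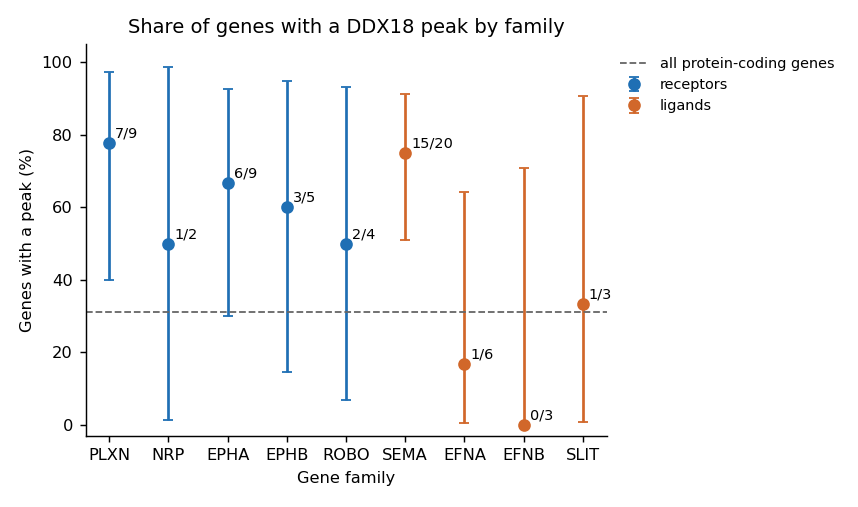
Share of genes with at least 1 DDX18 peak (vertical axis, percent) in each guidance gene family (horizontal axis), receptors to the left of ligands; bars are exact 95% binomial intervals, the numbers give genes with a peak over all genes of the family, and the dashed line marks all protein-coding genes (31.0%). Semaphorins stand at 15 of 20 and plexins at 7 of 9, and the ephrins at 1 of 6 (EFNA) and 0 of 3 (EFNB).

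Most positions lay in few genes. Of the 61 genes, 10 had 5 or more positions (3.66% of all protein-coding genes did) and together held 106 of the 151, while 15 had 1 position. At 2 or more positions 21 of the 61 were left, against 14.7% of all protein-coding genes, and 28 had a peak in an exon, against 21.9%. A peak of height 10 or more was listed in 13 of the 61, against 8.78%, and a p-value up to the median of the list in 22, against 17.2%. The 5 or more positions were held by 6 receptors (62 positions) and 4 ligands (44 positions). Heights in the members had a median of 8 (quartiles 6 and 12), the same as over the 15599 positions of all protein-coding genes (8, quartiles 6 and 12). Receptor positions had a median height of 7 (range 3 to 21) and ligand positions one of 9 (range 4 to 208). ROBO1 and ROBO2 held 23 and 11 of the 81 receptor positions, with medians of 6 and 5. SEMA6A held 25 of the 70 ligand positions, with a median of 13. The order of the receptor and ligand medians rested on these genes, so receptors and ligands were not set apart by height. SEMA6A alone held 387 and SEMA3C 208 of the summed height of 939 in the ligands, against 691 in the receptors.

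**Figure D2:**
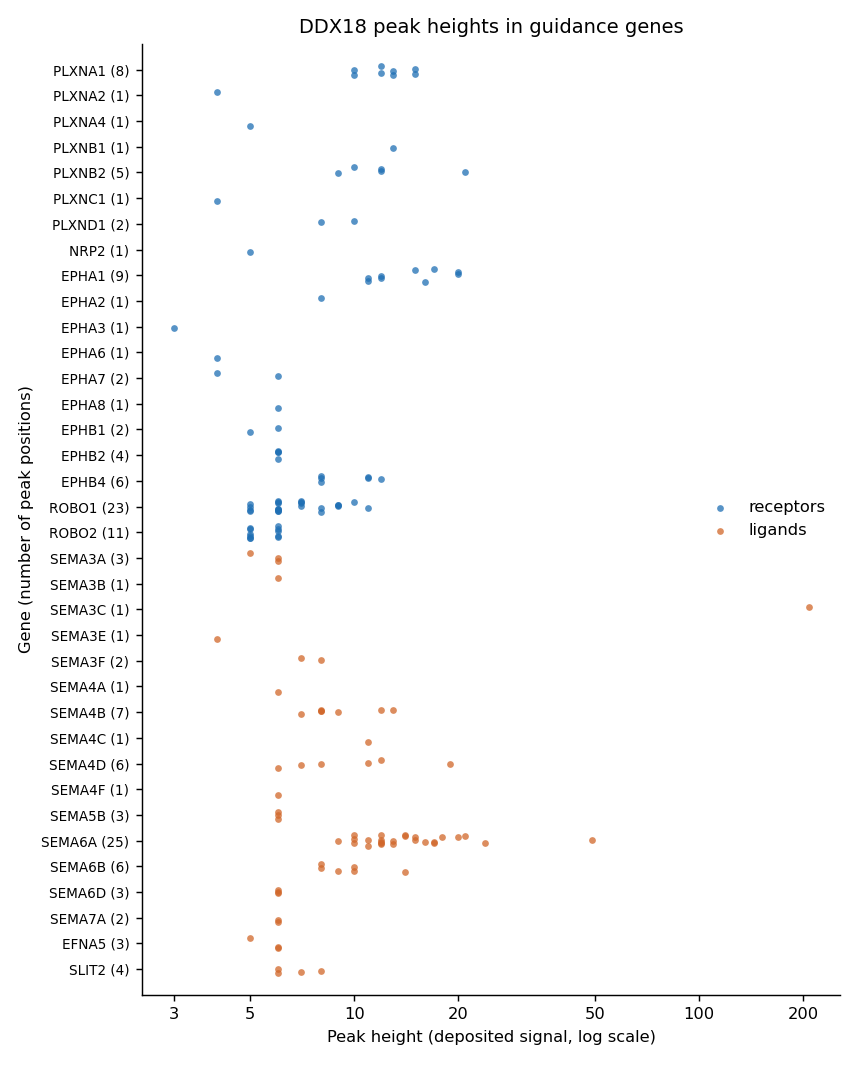
Heights of all 151 peak positions (horizontal axis, deposited signal, log scale) in the 36 guidance genes with a peak, receptors above ligands; each point is 1 position, shifted a little up or down for display, and the number of positions stands behind the gene. SEMA6A (25 positions) and ROBO1 (23) have the most points, and the SEMA3C point at 208 lies apart from the rest.

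Among the plexins, the receptors that carry a GTPase-activating domain for small GTPases of the Ras and Rap type, PLXNA1 had the most positions. Its 8 peaks had heights of 13, 12, 12, 15, 10 and 13 in coding exons 1, 2, 7, 21, 24 and 28 of 31 and of 10 and 15 in the 3' UTR. They ran from chr3:126708113-126708113 to chr3:126754466-126754474 on the plus strand of hg19. The listed heights within PLXNA1 thus ran from 10 to 15, and the peaks were spread from the first exon to the last. Lower peaks may not have been listed, since the lowest height listed differed between genes.

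PLXNB2 had 5 peaks, all in coding exons. Their heights were 12 and 10 in exon 3, 12 in exon 21, 9 in exon 28 and 21 in exon 33 of 37. The last of these, at chr22:50716083-50716083 on the minus strand, was the highest peak of any receptor. PLXND1, which takes part in blood vessel patterning, had peaks of 10 in exon 7 and 8 in exon 18 of 36. PLXNB1, a receptor of SEMA4D, had 1 peak of 13 in exon 25 of 38, and PLXNA2 had 1 of 4 in exon 22 of 32. PLXNA4 (height 5) and PLXNC1, a receptor of SEMA7A (height 4), had 1 intronic peak each. The neuropilin NRP2, a co-receptor for class 3 semaphorins, showed 1 low peak (height 5), which mapped to exon 7 of 16 at chr2:206592641-206592661.

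Of the Eph receptors, EPHA1 stood first in number and in height. It had 9 peaks of heights 11 to 20 with a median of 15, on the minus strand of chromosome 7 between positions 143088247 and 143098501. They lay in coding exons 3, 4, 6, 9, 14, 15 and 16 of 18, with heights of 11, 20, 12, 20, 15, 11 and 12. The peaks of 20 were at chr7:143096986-143096989 in exon 4 and chr7:143094679-143094688 in exon 9. Another 2, of heights 16 and 17, carry the label of a transcript end (TTS) of ZYX, a neighbouring gene, although both were called in EPHA1. No EPHA1 peak carried an intron label.

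EPHB4, the receptor of ephrin-B2 on veins, had 6 peaks of heights 8 to 12. These lay in coding exons 5, 6, 12 and 16 of 17, with heights of 8, 11, 8 and 11, and in the 3' UTR, with heights of 8 and 12. The highest was at chr7:100400464-100400472 on the minus strand. EPHB2 had 4 peaks, all of height 6, in coding exons 3 and 12 of 16 and in introns 1 and 3 of 15, from chr1:23060129-23060143 to chr1:23234634-23234660 on the plus strand. EPHB1 had 1 of height 5 in coding exon 14 of 16 and 1 of height 6 in intron 9 of 15.

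The other A-class receptors had low peaks. EPHA7 had 1 of height 4 in coding exon 1 of 17 and 1 of height 6 in intron 12 of 16. EPHA2, an epithelial member of the family, had 1 of height 8 in coding exon 3 of 17. EPHA8 (height 6), EPHA6 (height 4) and EPHA3 (height 3) each had 1 peak in an intron, that of EPHA3 in an Alu repeat. EPHA3 held the lowest peak of all members.

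ROBO1 and ROBO2, the Slit receptors, had 23 and 11 positions, and the annotation placed them differently. By number of positions, ROBO1 ranked 36 among the 6218 protein-coding genes with a peak. Its heights ran from 5 to 11 with a median of 6. Of its 23 peaks, 18 lay in coding exons, 3 in the 5' UTR, 1 in the 3' UTR and 1 in an intron, and the 22 exonic ones fell in 17 different exons of 29. The highest, of 11, was in exon 9, at chr3:78734981-78734984 on the minus strand, followed by 10 in exon 2 at chr3:78988034-78988035. The 5' UTR peaks, 158, 750 and 969 nt from the annotated start site, had heights of 9, 7 and 6. Exon 3 had peaks of 7 and 6, exon 18 had 2 of 6, exons 5 and 28 had 1 of 7, and exons 4, 15 and 22 had 1 of 6. Peaks of 5 were listed in exons 2, 6, 20 and 23. Exons 8 and 12 had peaks of 9, exon 25 and the 3' UTR peaks of 8, and intron 6 of 28 one of 6. The peaks of ROBO1 were therefore low and many, and ran along the spliced transcript from its first exon to its last. Their number and rank include peaks from a height of 5 on, whereas the lowest listed in EPHA1 was 11. At a height of 10 or more, 2 positions were left in the Robo genes.

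All 11 peaks of ROBO2 were labelled intergenic, although each was called in ROBO2 and lay on the plus strand. By rising position their heights were 6, 6, 6, 5, 5, 5, 5, 5, 6, 5 and 6, between positions 76099015 and 76932465 of chromosome 3. For 4 of them the nearest annotated start site was that of ROBO2, 156849 to 605851 nt away. For the other 7 it was that of ZNF717, and 3 of the 11 lay in named repeats. The peaks called in ROBO2 thus lay outside the transcripts used for annotation, and no ROBO2 peak lay in an annotated exon.

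SEMA6A, a transmembrane semaphorin that binds plexin-A2 and plexin-A4, had more positions than any other member, 25, and ranked 27 among the 6218 protein-coding genes with a peak. Its heights ran from 9 to 49 with a median of 13, and 12 of its deposited p-values stood at the lower limit of 1e-100. In the 5' UTR it had 4 peaks of heights 12, 24, 10 and 15, which lay 584, 517, 371 and 125 nt from the start site. In coding exons 4, 5, 8, 9, 10, 11, 12, 13 and 19 of 20 the heights were 13, 17, 13, 12, 21, 15, 18, 14 and 10. Another 5, of heights 12, 16, 14, 17 and 10 by rising position, lay in the 3' UTR, the first at chr5:115779523-115779525. The peaks of SEMA6A thus lay at both ends of the transcript and between them, and 0 were in introns.

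The remaining 7 SEMA6A peaks carry labels of SEMA6A-AS1, a non-coding gene named as antisense to SEMA6A. These were 6 labelled as its promoter, of heights 12, 9, 11, 11, 12 and 49, and 1 as its first exon. They include the highest SEMA6A peak, of height 49, at chr5:115783267-115783276, and one of height 20 at chr5:115783422-115783424. All 7 were called in SEMA6A and listed on the minus strand, as were its other 18 peaks, and SEMA6A-AS1 had 0 entries of its own. Of the 13 non-coding genes named after a member, antisense genes and a ROBO2 pseudogene among them, 0 had an entry. Few non-coding genes were called at all, since 6218 of the 6677 matched called genes were protein-coding. The share over all non-coding genes was not counted, so the 0 is not a result about these 13.

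The other class 6 members differed. SEMA6B had 6 peaks: 10, 14 and 8 in coding exons 8, 10 and 12 of 17, 8 and 10 in the 3' UTR and 9 at the transcript end. Its highest was at chr19:4552628-4552637 on the minus strand. SEMA6D had 3 peaks of height 6, all of them in introns.

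Class 4 semaphorins, which are transmembrane proteins best known from plexin-B signalling, had a peak in 5 of 6 genes. SEMA4D, the plexin-B1 ligand also known from lymphocytes, had 6 peaks of heights 8, 6, 19, 11, 12 and 7, listed by rising position on chromosome 9, minus strand. The first was in the 3' UTR, the next 2 in the coding part of exon 18, and the others in exons 12, 10 and 7 of another transcript with 21 exons. The peak of 19, at chr9:91994498-91994514, carried a deposited p-value of 1e-100, the lower limit of the list, as did those of 11 and 12. SEMA4B had 7 peaks of heights 8, 7, 8, 12, 13, 9 and 8 by rising position on chromosome 15, of which the first 4 lay in coding exons 6, 7, 9 and 11 of 14 and the next 2 in the 3' UTR. Its highest was at chr15:90772035-90772047. The last of the 7 was labelled as the end of CIB1, a neighbouring gene. SEMA4C had 1 of height 11 in coding exon 5 of 15, SEMA4A 1 of 6 in exon 11 of 15 and SEMA4F 1 of 6 in a non-coding exon.

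SEMA3C, a secreted semaphorin known from mice to be needed in the outflow tract of the heart, had the highest peak of all members. It was the gene's only peak, of height 208, in the 5' UTR at chr7:80548553-80548569 on the minus strand, 106 nt from the annotated start site. Among the 361 positions that protein-coding genes had in 5' UTRs, whose median height was 9, it ranked 2, and over all 15599 positions it ranked 117. The height that the list expects for a peak in SEMA3C was 0.04, and the deposited p-value was 8.57e-09. The next highest member peak, that of SEMA6A, had a height of 49.

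The other class 3 semaphorins had low peaks. SEMA3A, the collapsin-like repellent of sensory axons, had 3 of heights 6, 6 and 5, with both of the higher ones in the 3' UTR. SEMA3F, a ligand that acts through neuropilin-2, had 2, of heights 8 in coding exon 19 of 19 and 7 at the transcript end. SEMA3B had 1 peak of 6 in coding exon 15 of 18, and SEMA3E, a ligand of plexin-D1, 1 of 4 in an intron within a LINE repeat. SEMA5B had 3 of height 6, of which 2 were intronic, and SEMA7A, which is held by a lipid anchor, 2 of height 6. A SEMA7A peak lay in coding exon 8 of 14. The other carried the transcript-end label of another gene, MIR6881, although it was called in SEMA7A.

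SLIT2, the Slit with peaks, had 4. They had heights of 7 in the 5' UTR, 143 nt from the start site, of 8 and 6 in coding exons 18 and 23 of 36, and of 6 in intron 28 of 35. The highest was at chr4:20541169-20541186 on the plus strand. EFNA5, a ligand of several EphA receptors, had 2 peaks of height 6 in intron 1 of 4, at chr5:106838984-106839017 and chr5:106990646-106990672, and a lower one (height 5) in the 3' UTR at chr5:106716461-106716467. No ephrin thus had a peak in a coding exon.

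Taking all members by region, 80 of the 151 positions lay in coding exons (53.0%, 44.7 to 61.1), against 47.8% (47.0 to 48.6) of the positions in protein-coding genes. Introns held 19 (12.6%, 7.75 to 19.0, against 18.0%) and 3' UTRs 18 (11.9%, 7.22 to 18.2, against 18.7%). Receptors had 61.7% of their positions in coding exons (50 of 81, 50.3 to 72.3) and ligands 42.9% (30 of 70, 31.1 to 55.3). Without ROBO1, which held 18 of the 50, the receptor share was 55.2% (32 of 58) and that of all members 48.4%, close to the 47.8% of protein-coding genes. Without ROBO2 the receptor share was 71.4%, and without SEMA6A the ligand share was 46.7%. In 3' UTRs lay 6.17% of receptor positions (5 of 81, 2.03 to 13.8) and 18.6% of ligand positions (13 of 70, 10.3 to 29.7). All 11 intergenic positions belonged to ROBO2 and all 6 promoter labels to SEMA6A. The 11 were called in ROBO2 but are not counted as intronic here, so the intron share depends on this label. Intergenic labels made up 7.28% of member positions, against 0.615% in protein-coding genes. Without SEMA6A and ROBO2, introns held 16.5% of positions (19 of 115, 10.3 to 24.6).

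**Figure D3:**
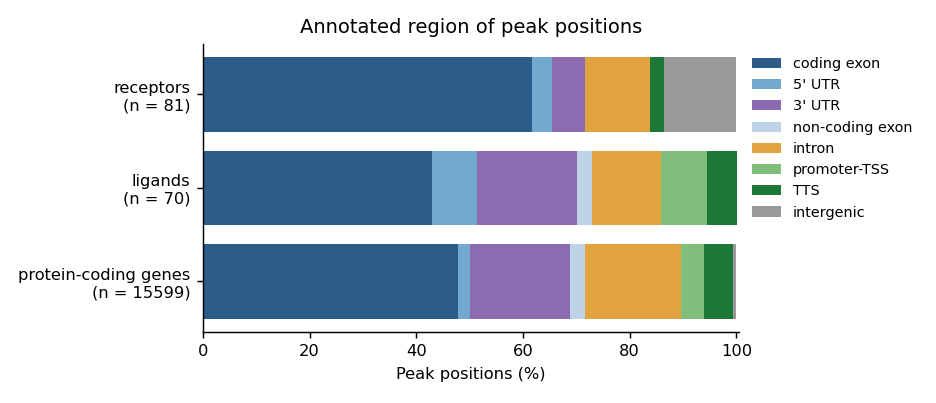
Share of peak positions (horizontal axis, percent) by annotated region in receptors, ligands and all protein-coding genes, from top to bottom; TTS is the label around a transcript end. Coding exons hold 61.7% of receptor positions, 42.9% of ligand positions and 47.8% of those in all protein-coding genes, and the grey stretch of the receptors is ROBO2.

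The exonic peaks of receptors lay mostly in internal exons, and those of ligands were more evenly divided between internal and end exons. Exons that were neither first nor last held 48 of 58 exonic positions in receptors (82.8%, 70.6 to 91.4) and 27 of 51 in ligands (52.9%, 38.5 to 67.1), against 58.8% in protein-coding genes. The last exon held 5 of 58 in receptors (8.62%, 2.86 to 19.0) and 17 of 51 in ligands (33.3%, 20.8 to 47.9), against 35.6%. Positions with a promoter or transcript-end label were not counted as exonic. In receptors these were 2 transcript-end labels, and in ligands 4 such labels and the 6 promoter labels of SEMA6A. Their place among the exons of the called gene was not used. The 51 include the SEMA6A peak in an exon of SEMA6A-AS1, counted as a first exon, and without it the internal share of ligands was 54% (27 of 50). Without ROBO1 the internal share of receptors was 83.3%, and without SEMA6A that of ligands was 56.2%, so the order of the shares was the same without them. The last-exon peaks came from 3 receptor genes and 8 ligand genes. Annotated transcripts with an exonic peak had a median of 18 exons in 13 receptors (16 to 38) and 17.5 in 14 ligands (5 to 36). Positions within a gene share their transcript and the lengths of the exons were not used here, so no test was made, and the part of exon length was not tested.

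**Figure D4:**
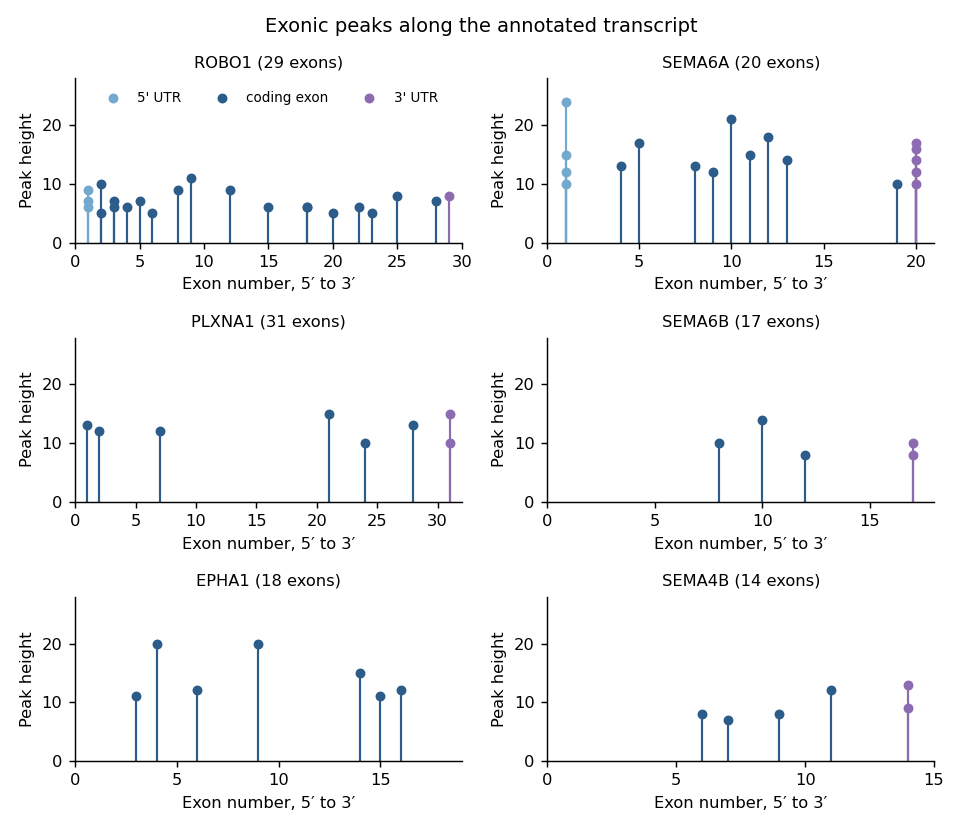
Heights (vertical axis, deposited signal) of peaks in exons, by exon number from the 5′ to the 3′ end (horizontal axis), in 3 receptors (left) and 3 ligands (right); light blue is 5' UTR, dark blue coding exon, purple 3' UTR, and peaks labelled with a neighbouring gene are not drawn. ROBO1 shows low peaks of 5 to 11 along its 29 exons, and SEMA6A has peaks of 10 or more in its first exon, its internal exons and its last exon.

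The list names for every gene 1 expected height that was the same for all peaks of a member. Among members it ran from 0.00 to 0.76. The 22 members at 0.04 or lower had peaks from a height of 3 on, with a median of 6, and the 8 members above 0.2 had none lower than 8, with a median of 12. All 19 intronic peaks were in members at 0.04 or lower, and their heights were 3 to 6. Over all protein-coding genes, introns held 38.6% of positions at an expected height of 0.04 or lower and 2.54% above 0.2. The median expected height of the members with a peak was 0.03, against 0.05 in protein-coding genes with a peak. The lowest listed peak was 11 in EPHA1, with an expected height of 0.76, and 5 in ROBO1, with one of 0.01. Heights were thus not listed from the same level on in each gene, and numbers of positions do not compare evenly between genes.

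**Figure D5:**
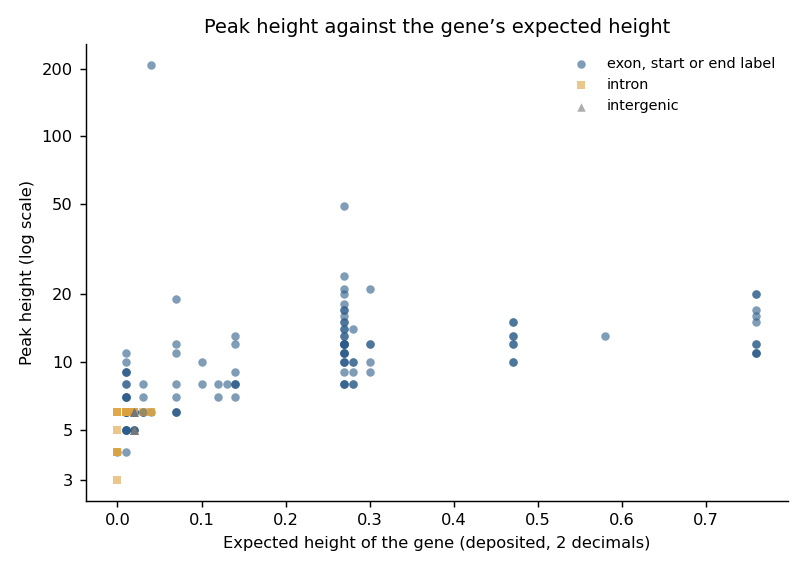
Peak height (vertical axis, log scale) against the deposited expected height of the gene (horizontal axis, given to 2 decimals) for the 151 member positions; blue circles are peaks with exon, start or end labels, yellow squares introns and grey triangles the intergenic ROBO2 peaks. Intronic peaks sit at an expected height of 0.04 or lower with heights of 3 to 6, and the isolated point at 208 is SEMA3C.

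Genes of guidance systems outside these families were also listed, mostly receptors and effectors. Of 9 other ligands (netrins, draxin and RGM proteins), 2 had a peak (22.2%, 2.81 to 60.0), RGMA with a highest of 7 and RGMB with one of 6. Of 15 other receptors and adhesion co-receptors, 11 had one (73.3%, 44.9 to 92.2), against 31.0% of all protein-coding genes. In 7 of these 11 no peak lay in an exon, and the 4 of 15 with an exonic peak (26.7%, 7.79 to 55.1) were NEO1, UNC5B, UNC5C and UNC5D, against 21.9% of all protein-coding genes. NEO1, the neogenin receptor of RGM and netrin, had 12 positions, all in exons, with a highest of 9. UNC5B, a netrin receptor, had 6 with a highest of 11 in its 5' UTR. DCC, the classical netrin receptor, had 2 with a highest of 3 in an intron, and 0 of its peaks were in exons.

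Of 39 cytosolic effectors that act below these receptors, 25 had a peak (64.1%, 47.2 to 78.8), against 31.0% of all protein-coding genes. A peak in an exon was found in 17 (43.6%, 27.8 to 60.4), against 21.9%, and the other 8 had none in an exon. The collapsin response mediators DPYSL2 and DPYSL3, which pass semaphorin signals to microtubules, had 14 and 8 positions with highest peaks of 10 and 13. ABL1, whose Drosophila relative acts in the Robo pathway, had 10 with a highest of 11, and ENAH, an actin regulator, had 8 with a highest of 10. RHOA, the GTPase downstream of plexin-B and Eph signals, had 7, all in exons, with a highest of 26. CFL1, the actin-severing cofilin, had 4 with a highest of 29 at a transcript end. SRGAP1, SRGAP2 and SRGAP3, named after Slit and Robo, had 1 position each, of heights 5, 5 and 6.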

How the data were processed

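RNA contacts of FLAG-tagged DDX18 were measured by iCLIP in 2 samples of H9 cells. Per the labels' protocols, cells were irradiated at 160 mJ/cm2 and 254 nm. The signal (peak height) was deposited by the authors as 1 list, annotated on hg19 with annotatePeaks.pl of HOMER, per the file headers. The submitters' processing notes name FastQC 0.10.1 and BWA. No peak caller, cut-off or handling of duplicates is named there (not given in the sources used here). Heights are not scaled to depth or RNA abundance. Expected heights and p-values, also the authors' own, were read from the peak names.

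Python 3.11.15 with pandas 2.3.3 and scipy 1.17.1 gave counts, medians and intervals. Called genes were named by Entrez identifier through the RefSeq gene table (6677 of 6695 matched; GRCh38.p14, used for names and biotypes only). Reading of the list was tested on simulated data. The members and lists were chosen with earlier results of these data known. Every member with a peak is named, each peak's height and region are given for the 12 with the most positions, and coordinates, fewer than planned, for their span or highest peak and for the highest peak of each family. No test was made, since no value per sample exists, and no sequence is printed, since no hg19 genome was used here.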

Additional observations from a re-analysis of the deposited data

How the results depend on the processing

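The share of genes with a peak moved where fewer peaks were counted, as it also did for all protein-coding genes. For receptors it was 41.4% with p-values up to the median of the list (background 17.2%), 24.1% with heights of 10 or more (8.78%), 44.8% with exonic peaks (21.9%) and 34.5% with 2 or more positions per gene (14.7%). For ligands it was 31.2% with p-values up to the median, 18.8% with heights of 10 or more and 34.4% with 2 or more positions. Receptors minus ligands ran from -4.05 to 25.5 points over the 13 settings tried. All lay within its interval of -11.8 to 34.5, but that interval is wide and the sign turned in some settings. Staying within it therefore does not show a stable difference. The coding-exon share was 62.9% with heights of 10 or more. The median height was 11 with p-values up to the median, 12 with heights of 10 or more, 10 with exonic peaks and 6 without transmembrane semaphorins. Leaving out SEMA6A, ROBO1 or ROBO2 was chosen after seeing the data and moved none of these values beyond their intervals. Leaving out a sample was not possible, since the list has no value per sample. No paired analysis was possible because the result comes from no test and the 2 samples share 1 column. Peaks per residue, protein length bins and the limit on protein length were not run, since no protein lengths were used here.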

Other observations

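Outside the member genes, 2 cytosolic effectors of guidance had isolated peaks of great height, like that of SEMA3C (208). MICAL2, an actin-oxidizing enzyme of the MICAL family, had 1 peak, of height 100, with a promoter label. VAV2, an exchange factor below Eph receptors, had 2 peaks with a highest of 3427 in an intron, and 0 in exons. These values were picked out after they had been seen.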
